A study of Homo sapiens with 10 samples.

Results

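The Fanconi anemia and homologous recombination genes comprise 39 of the 46427 genes listed in the deposited RNA sequencing table, and they were chosen by symbol for their known part in crosslink repair, recombination and damage checkpoint signalling. Poly(A) RNA was sequenced from H460 and A549 cells, established human lung adenocarcinoma lines. H460 cells were either parental cells in 2D culture (3 libraries) or the cells that survived a chemotherapy drug. The surviving cells had received 4 µM cisplatin (CR, 1 library), 0.5 µM doxorubicin (DR, 1 library) or 5 nM paclitaxel (PR, 2 libraries) for 3 days, followed by 3 days in fresh medium and re-plating. They were thus short-term survivors and not lines bred under the drug. H460 and A549 tumor spheroid (TS) cells, which the labels name CTC after the sphere culture method, gave 1 library each and were grown unattached in medium with growth factors. A549 cells in 2D culture gave 1 library. TS cells and 2D cells received no drug.

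Crosslinks that join the strands of DNA are recognized at stalled replication forks by the Fanconi anemia (FA) core complex, which with the E2 enzyme UBE2T attaches ubiquitin to the pair FANCD2 and FANCI. Nucleases then cut the crosslink free, and the resulting double-strand break is copied from the sister chromatid by homologous recombination. BRCA1 and BRCA2 act in this step on resected DNA. Many of these genes are transcribed mainly in S and G2 phase. Cisplatin forms crosslinks, doxorubicin traps topoisomerase II on broken DNA, and paclitaxel stabilizes microtubules.

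E2F factors drive many genes of S phase, so the proximal promoters, taken from RefSeq on GRCh38.p14 as 250 bases before to 50 bases after the annotated start, were searched on both strands for the E2F words TTTCCCGC and TTTGGCGC and TTTCGCGC and TTTGCCGC. Promoters were found for 36 of the 39 genes. At least 1 of the words stood in 6 of them (16.7%), against 3.99% of all 27305 genes with a promoter. Those genes were not matched to the 39 for expression or base composition, so the difference in share cannot be assigned to E2F. The 6 were EXO1, FANCA, FANCC, FANCD2, TOPBP1 and XRCC2. In 4 genes a word lay between 50 bases before and 12 bases after the start. Of these, FANCC was not called in the drug comparison and the other 3 were, as were FANCA and XRCC2. Of all 39 genes, 28 (71.8%) were called lower there, and a link of the words to the calls was not tested. The promoters of the 4 genes are shown over that stretch. Each is written on the strand of its gene, with the word in capitals. They lie at chr3:10026387-10026448 on the plus strand for FANCD2, chr3:133661930-133661991 on the minus strand for TOPBP1, chr1:241848154-241848215 on the plus strand for EXO1 and chr9:95317698-95317759 on the minus strand for FANCC.
FANCD2: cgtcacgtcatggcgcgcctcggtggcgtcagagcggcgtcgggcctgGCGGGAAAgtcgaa
TOPBP1: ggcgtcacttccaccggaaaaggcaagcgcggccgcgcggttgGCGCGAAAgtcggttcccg
EXO1: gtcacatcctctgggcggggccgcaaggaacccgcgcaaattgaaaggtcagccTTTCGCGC
FANCC: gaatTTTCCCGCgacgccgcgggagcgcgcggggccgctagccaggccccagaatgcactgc

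The words in FANCD2 and TOPBP1 are the reverse complements of TTTCCCGC and TTTCGCGC. TTTGAA, the core of the cell cycle homology region of late cell cycle genes, stood in 5 of the 36 promoters (13.9%), against 18.2% of all genes, and CCAAT in 16 of 36 (44.4%), against 39.7%. A match is a run of letters and not a measured binding site.

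Depth ran from 59499787 to 89541774 counted reads (median 71656787). The lowest count of any of the 39 genes was 47 reads, for BLM in PR replicate 2, and the median over genes and libraries was 1431 reads. Each library had fewer genes at a count of 1 than of 2, such as 672 against 987 in parental replicate 1, so a deposited count may not be 1 independent read. The keratins KRT8 and KRT18 were expressed in every library, at an FPKM (fragments scaled by transcript length and sequencing depth, a level comparable between genes) between 190.4 and 3866. The epithelial marker CDH1 was at most at an FPKM of 0.0266 in the H460 libraries and at 9.29 and 11.9 in A549 2D and TS cells. EPCAM, also epithelial, was at most at 0.114 in the H460 and 1.04 in the A549 libraries. The keratin KRT19 was between 138.3 and 738.3 in H460 and at 3.57 and 68.3 in A549 2D and TS cells. PTPRC, PECAM1 and VWF, markers of leukocytes and endothelium, stayed at or below an FPKM of 0.157 in all libraries. The summed FPKM over libraries ran from 2.37 to 17.2 for the 4 leukocyte markers, nearly all of it CD14, and from 0.169 to 26.7 for the 4 fibroblast markers, with LUM at 26.6 in H460 TS cells. It was at most 0.182 for the 3 endothelial markers. Parental replicate 3 had the lowest parental level of 31 of the 39 genes, and it did so for 41.2% of the 18398 genes tested. The replicates were not stated to be separate cultures, so the p-values below measure the spread between libraries, which may be technical.

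The question of the first comparison was how the repair genes stood in the cells that had survived any of the 3 drugs. Of the 39 genes, 28 were lower in the 4 drug-surviving libraries than in the 3 parental libraries by edgeR's quasi-likelihood test with Benjamini-Hochberg adjustment over all genes, none was higher, and 11 did not pass. Of all 18398 genes tested, 15.3% were called lower and 3397 genes were called higher. The median log2 fold change of the 39 genes was -1.66, against 0.06 for all genes tested, and single genes ran from -3.35 for BLM to 0.04 for FANCF. Of the 28 genes, 26 fell by at least 1 on the log2 scale and 16 by at least 2. The 28 genes were also those for which every drug-surviving library lay below every parental library, which held for 13.6% of all genes tested. In bulk RNA, fewer cells that express a gene and less of its RNA per cell cannot be told apart.

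**Figure D1:**
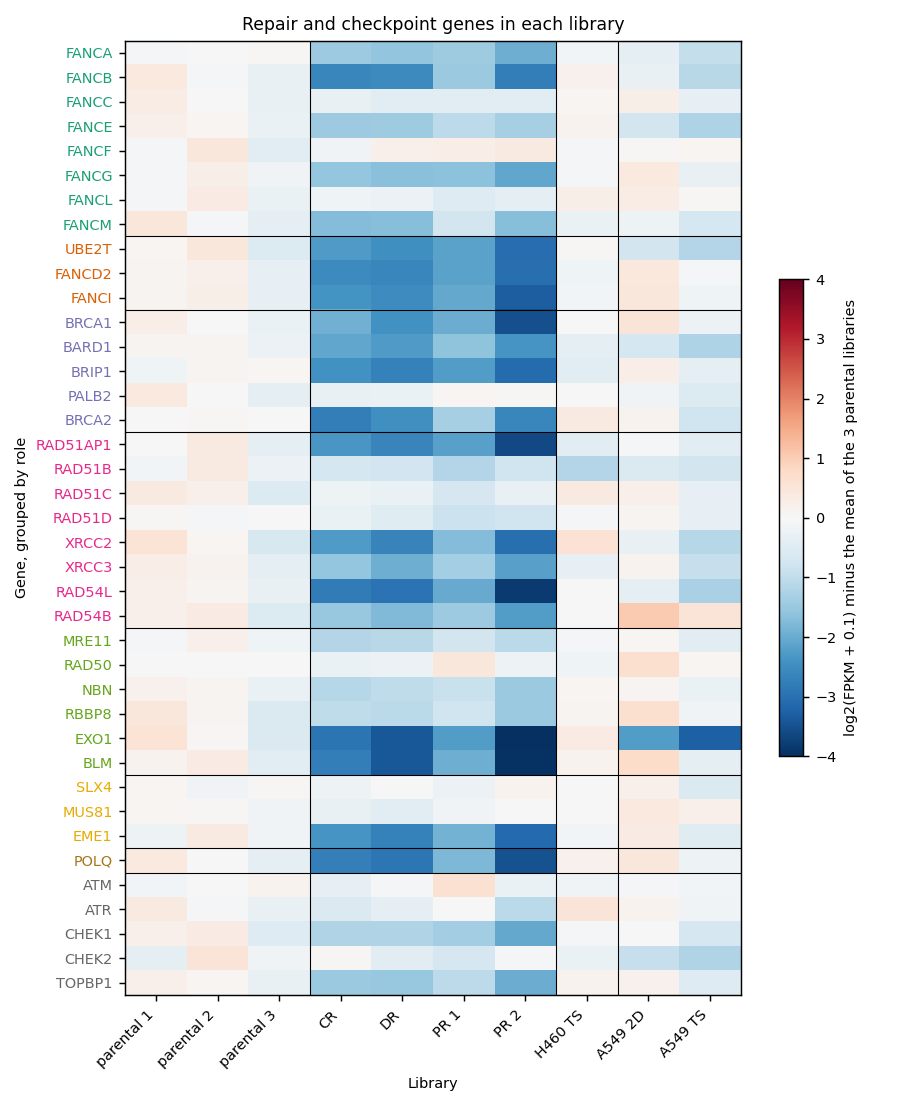
Level of each of the 39 genes (rows, grouped by role and coloured by it) in each of the 10 libraries (columns), as log2(FPKM + 0.1) minus the mean of the 3 parental libraries. Blue fills most rows of the CR, DR and PR columns, whereas rows such as FANCF, PALB2, RAD50, SLX4 and ATM stay pale there, and the H460 TS column is pale apart from RAD51B.

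Proliferation markers moved with the repair genes. All 15 genes of that list were lower in the drug-surviving cells, with a median log2 fold change of -3.49. Their summed FPKM was between 806.8 and 1246 in the parental libraries, 197.3 in CR, 174.4 in DR, 300.0 and 151.6 in PR replicates 1 and 2, and 1014 in H460 TS cells. AURKA and CCNB1, which act in mitosis, fell 11.2-fold and 11.6-fold, MCM2, a subunit of the replicative helicase, fell 4.88-fold, and TYMS, which makes thymidylate, fell 3.19-fold. MKI67, which marks cycling cells, fell 13.0-fold, and PCNA, the replication clamp, fell 2.14-fold (adjusted p = 0.00265 and 0.00401 in edgeR). The part of fewer cycling cells in the fall of the repair genes was not tested. The list of p53 response genes moved the other way, with 14 of 15 genes higher and none lower. CDKN1A, which encodes the CDK inhibitor p21, was at an FPKM of 33.0, 25.3 and 20.7 in the parental libraries and at 654.2 in CR, 403.8 in DR, and 343.4 and 498.0 in PR. MDM2, the ubiquitin ligase of p53, rose by 2.12 on the log2 scale (SE 0.24), and the p53 targets ZMAT3 and GADD45A rose by 2.12 and 2.19.

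The FA core complex divided. FANCA, FANCB, FANCE, FANCG and FANCM were lower in drug-surviving cells, and FANCC, FANCF and FANCL were not called. FANCA, a scaffold of the core complex, had an FPKM of 11.8, 12.6 and 12.6 in the parental libraries and of 4.483 in CR, 4.086 in DR, and 4.498 and 3.128 in PR. Its means were 12.3 ± 0.468 (SD, n = 3) and 4.05 ± 0.643 (SD, n = 4), and its log2 fold change was -1.66 (SE 0.20, adjusted p = 0.000382 in edgeR). FANCG, which binds FANCA, went from 11.0, 13.8 and 10.6 in parental cells to 3.96 in CR, 3.59 in DR, and 3.73 and 2.67 in PR. All 4 surviving libraries of both genes were thus far below the parental range.

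FANCB, the X-linked member that joins FANCL and FAAP100 in the catalytic module, was at an FPKM of 3.18, 2.24 and 1.93 in parental cells and of 0.309 in CR, 0.328 in DR, and 0.795 and 0.264 in PR. Its fall of 6.33-fold was the largest of the core genes. FANCE, which links the core to FANCD2, was at 4.46, 4.05 and 3.15 in parental cells and at 1.35 in CR, 1.38 in DR, and 1.79 and 1.46 in PR. FANCM, the translocase that brings the core to DNA, was at 3.24, 2.27 and 1.75 in parental cells and at 0.640 in CR, 0.652 in DR, and 1.36 and 0.658 in PR. In FANCB and FANCM, PR replicate 1 was well above the other 3 surviving libraries and still below the lowest parental one.

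FANCF, FANCL and FANCC did not pass the test. FANCF, an adaptor of the core complex, was at an FPKM of 2.76, 3.92 and 2.1 in parental cells and of 2.58 in CR, 3.30 in DR, and 3.44 and 3.65 in PR, so the groups overlapped. Its log2 fold change was 0.04, with a 95% interval from -0.43 to 0.51. FANCL, the ubiquitin ligase itself, had a log2 fold change of -0.43 (adjusted p = 0.124 in edgeR), and its interval ran from -0.89 to 0.02. FANCC was closest to the threshold (log2 fold change -0.54, adjusted p = 0.0505 in edgeR). Its interval, from -0.95 to -0.12, lay wholly below 0, and it was called in 3 of 13 alternatives, DESeq2 among them. Its promoter holds an E2F word in the stretch shown, as do those of FANCD2, TOPBP1 and EXO1, and another at -172 from the start. Any part of these words in the changes was not tested.

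**Figure D2:**
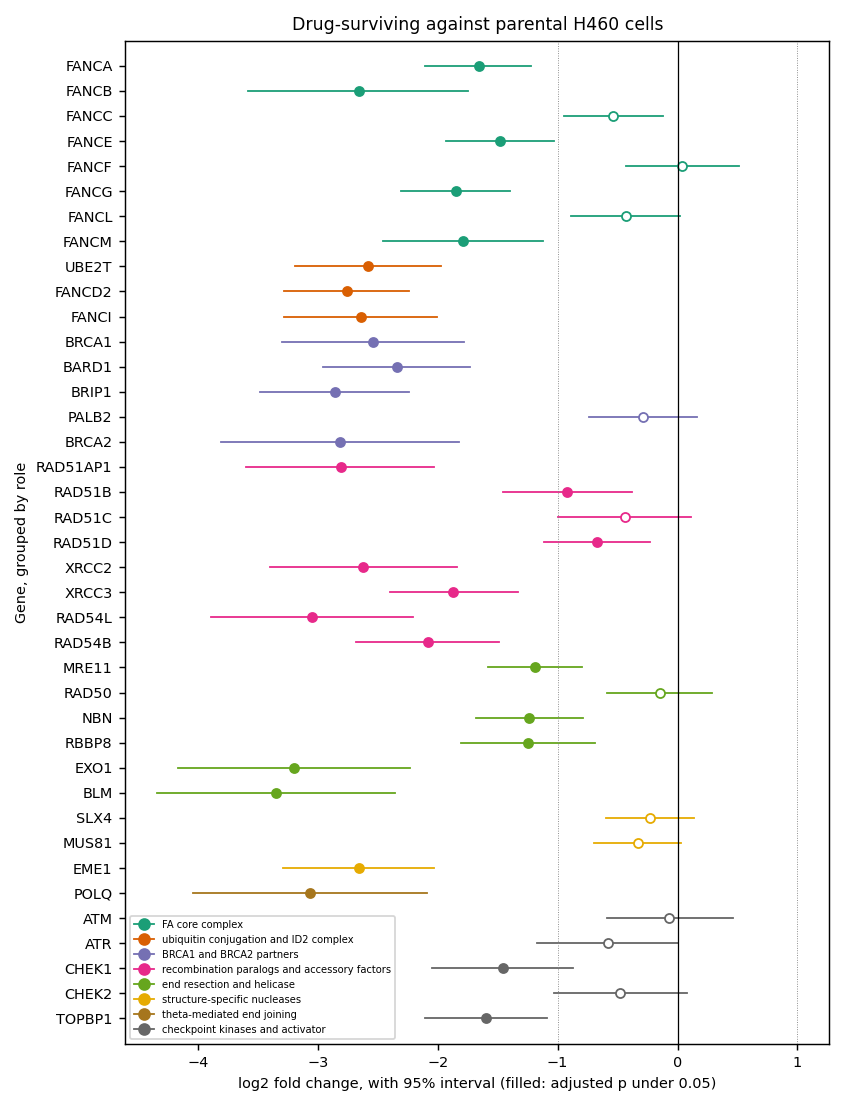
Log2 fold change of the 39 genes in the 4 drug-surviving against the 3 parental H460 libraries, with 95% intervals, coloured by role, where filled points are genes with an adjusted p under 0.05. The 28 filled points lie between -3.35 and -0.67 and the 11 open points between -0.58 and 0.04.

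UBE2T, FANCD2 and FANCI, the E2 enzyme and its paired substrates, were all lower. FANCD2 was at an FPKM of 8.17, 8.63 and 6.04 in parental cells and of 1.19 in CR, 1.14 in DR, and 1.63 and 0.843 in PR, a fall of 6.77-fold with the smallest adjusted p of the 39 genes (0.000136 in edgeR). FANCI was at 20.3, 22.1 and 14.8 in parental cells and at 3.48 in CR, 3.21 in DR, and 4.48 and 1.83 in PR. UBE2T, which had the highest level of the 39 genes in both groups, was at 98.0, 128.0 and 63.8 in parental cells and at 19.2 in CR, 16.8 in DR, and 21.1 and 11.2 in PR. The 3 genes fell by similar amounts, between -2.76 and -2.58 on the log2 scale. The ratio of the FPKM of FANCI to that of FANCD2 stayed between 2.16 and 2.92 in all 10 libraries.

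Of the BRCA genes and their partners, 4 of 5 fell. BRCA1, which promotes resection and recombination, was at an FPKM of 11.0, 9.25 and 7.59 in parental cells and of 2.32 in CR, 1.63 in DR, and 2.23 and 0.704 in PR. BARD1, its obligate partner in a ubiquitin ligase, was at 4.34, 4.35 and 3.44 in parental cells and at 0.882 in CR, 0.757 in DR, and 1.26 and 0.701 in PR. The fall of BRCA1 was 5.80-fold and that of BARD1 5.07-fold. The ratio of the FPKM of BRCA1 to that of BARD1 was between 2.13 and 2.53 in the parental libraries and at its lowest, 1.00, in PR replicate 2. It was 2.63 in CR, 2.15 in DR and 1.77 in PR replicate 1. In the undrugged H460 TS, A549 2D and A549 TS libraries it was 3.06, 5.45 and 4.73.

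BRCA2, a core mediator of recombination, had the lowest FPKM of the 39 genes in both groups, with 1.16, 1.22 and 1.17 in parental cells against 0.0879 in CR, 0.133 in DR, and 0.405 and 0.110 in PR. Its log2 fold change was -2.82 (SE 0.45, adjusted p = 0.00141 in edgeR). It was -3.50 without PR replicate 1 and, at this low level, -0.89 with limma on log2(FPKM + 1). BRIP1, a helicase that binds BRCA1, was at 1.92, 2.35 and 2.28 in parental cells and at 0.326 in CR, 0.248 in DR, and 0.388 and 0.171 in PR. PALB2, which bridges BRCA1 and BRCA2, stood apart from its partners. It was at 5.94, 4.48 and 3.37 in parental cells and at 3.65 in CR, 3.68 in DR, and 4.70 and 4.65 in PR, with a log2 fold change of -0.29 and a 95% interval from -0.74 to 0.16.

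Among the recombination paralogs and accessory factors, 7 of 8 were lower. RAD54L, a DNA translocase of strand exchange, was at an FPKM of 6.37, 5.99 and 4.45 in parental cells and of 0.717 in CR, 0.621 in DR, and 1.28 and 0.297 in PR, a fall of 8.30-fold. RAD51AP1, which promotes strand exchange, was at 7.29, 9.21 and 5.52 in parental cells and at 1.35 in CR, 1.06 in DR, and 1.51 and 0.5002 in PR. RAD54B, the homolog of RAD54L, was at 4.67, 5.11 and 2.69 in parental cells and at 1.34 in CR, 1.12 in DR, and 1.39 and 0.774 in PR. Each of these genes lay lowest in PR replicate 2.

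The paralogs, which assist recombination, fell unequally. XRCC2 was at an FPKM of 8.62, 6.32 and 3.80 in parental cells and of 1.16 in CR, 0.844 in DR, and 1.71 and 0.642 in PR. XRCC3 was at 14.0, 12.7 and 8.75 in parental cells and at 3.90 in CR, 2.95 in DR, and 4.45 and 2.52 in PR. RAD51B and RAD51D fell by less than 2-fold (log2 fold changes -0.92 and -0.67, adjusted p = 0.0159 and 0.0267 in edgeR). Both calls were weak. RAD51B was not called without parental replicate 2 (-0.77, adjusted p = 0.0705 in edgeR), and RAD51D was not called without parental replicate 1 (-0.66), parental replicate 2 (-0.70), PR replicate 1 (-0.57), PR replicate 2 (-0.58) or DR (-0.67), nor with upper-quartile scaling (-0.50). RAD51C was not called at -0.44, with an interval from -1.0 to 0.11, and was called without parental replicate 3 (-0.74, adjusted p = 0.0150 in edgeR).

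End resection and unwinding held the largest and one of the smallest changes. EXO1, a resection nuclease, was at an FPKM of 87.0, 61.5 and 40.04 in parental cells and of 7.86 in CR, 5.64 in DR, and 12.6 and 2.90 in PR, a fall of 9.17-fold. BLM, a helicase that resects ends and dissolves Holliday junctions, was at 3.75, 4.32 and 2.44 in parental cells and at 0.413 in CR, 0.238 in DR, and 0.805 and 0.129 in PR, and its fall of 10.2-fold was the largest of the 39 genes in this fit. With limma on log2(FPKM + 1), which understates falls of genes with a low FPKM, the log2 fold change of BLM was -1.69 and that of EXO1 was -3.03. RBBP8, which encodes CtIP and starts resection, was at 12.8, 9.99 and 6.21 in parental cells and at 4.55 in CR, 4.33 in DR, and 5.25 and 3.24 in PR.

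The subunits of the MRN complex, which senses double-strand breaks, differed. MRE11, its nuclease, was at an FPKM of 4.30, 5.09 and 3.92 in parental cells and of 1.88 in CR, 1.98 in DR, and 2.59 and 2.03 in PR. NBN, its ATM-binding subunit, was at 20.1, 18.8 and 14.5 in parental cells and at 8.01 in CR, 8.62 in DR, and 9.43 and 6.21 in PR. RAD50, the ATPase, had nearly equal parental levels of 9.23, 9.26 and 9.19, and levels of 7.74 in CR, 7.85 in DR, and 12.5 and 8.08 in PR. The log2 fold changes were -1.19 for MRE11 and -1.24 for NBN, against -0.15 for RAD50 with an interval from -0.59 to 0.29. The ratio of the FPKM of RAD50 to that of MRE11 was between 1.82 and 2.35 in the parental libraries and between 3.96 and 4.83 in the surviving ones. In cells without drug it was 2.0 in H460 TS, and 3.11 and 2.96 in A549 2D and TS, above the parental H460 range.

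EME1, which forms a nuclease with MUS81, was at an FPKM of 5.68, 8.53 and 5.92 in parental cells and of 1.19 in CR, 0.925 in DR, and 1.70 and 0.675 in PR. Its partner MUS81 was not called (log2 fold change -0.33, interval -0.70 to 0.03), nor was SLX4, the scaffold that holds several such nucleases (-0.23, interval -0.60 to 0.14). POLQ, the polymerase of theta-mediated end joining, was at 3.22, 2.43 and 1.85 in parental cells and at 0.283 in CR, 0.245 in DR, and 0.629 and 0.129 in PR, a fall of 8.37-fold.

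Checkpoint genes gave 2 calls of 5. CHEK1, the kinase below ATR, was at an FPKM of 12.8, 14.2 and 7.75 in parental cells and of 4.81 in CR, 4.80 in DR, and 4.18 and 2.63 in PR. TOPBP1, the activator of ATR, was at 15.5, 14.4 and 11.0 in parental cells and at 4.80 in CR, 4.69 in DR, and 6.43 and 3.37 in PR. They fell 2.75-fold and 3.03-fold. The apical kinases ATM, which answers double-strand breaks, and ATR, which answers single-stranded DNA, were not called. ATM was at 3.10, 3.35 and 3.69 in parental cells and at 2.69 in CR, 3.29 in DR, and 5.21 and 2.78 in PR, and the interval of its log2 fold change ran from -0.59 to 0.46. ATR was at 6.699, 5.035 and 4.271 in parental cells and at 3.5 in CR, 3.99 in DR, and 5.355 and 2.441 in PR. Its log2 fold change was -0.58, with an interval from -1.17 to -0.0 (adjusted p = 0.111 in edgeR).

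CHEK2, the kinase below ATM, was likewise not called, at -0.48 with an interval from -1.03 to 0.08. It was called with the form of the library name as a term (-0.74, adjusted p = 0.0285 in edgeR). The ratio of its FPKM to that of CHEK1 was 0.771, 1.32 and 1.51 in the parental libraries. It was 2.75 in CR, 1.95 in DR, and 1.95 and 4.70 in PR. The fall of CHEK1, the lower part of this ratio, is enough to raise it.

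**Figure D3:**
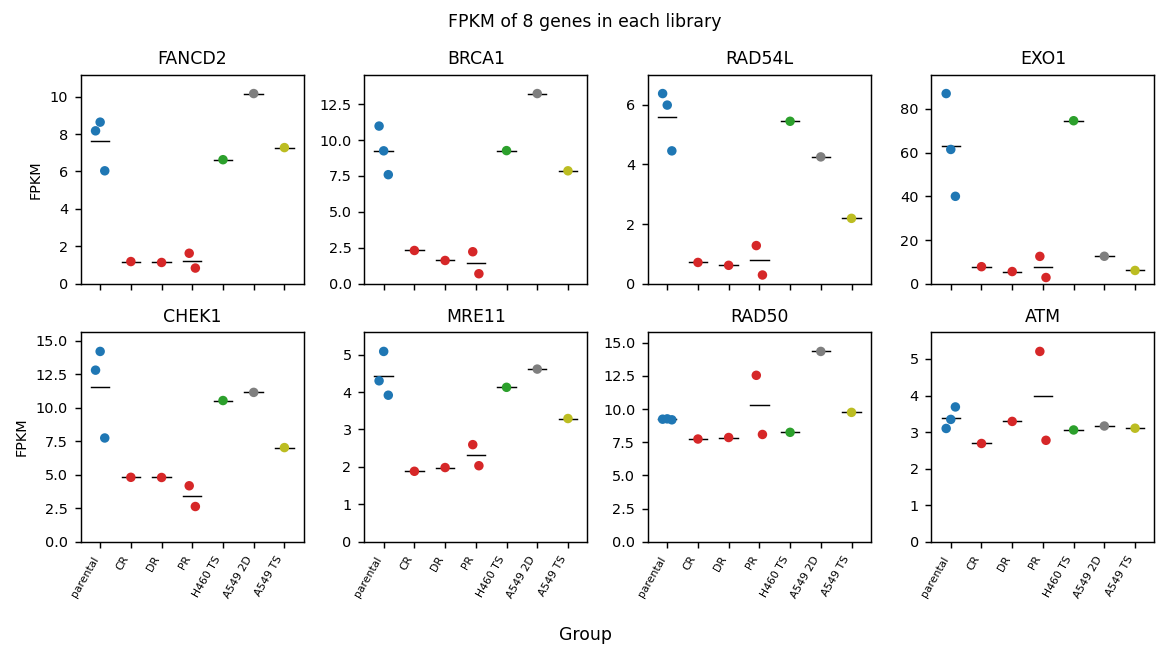
FPKM (vertical axis, from 0) of 8 genes in the 10 libraries by group, where points are libraries and lines are group means. In FANCD2, BRCA1, RAD54L, EXO1, CHEK1 and MRE11 the 4 surviving libraries (red) lie below all parental ones (blue), whereas in RAD50 and ATM PR replicate 1 lies above all parental ones.

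Some of these values could hold reads of other genes, since the handling of strand and of shared reads in the authors' counting is not given in the sources used here. More than 20% of the exon bases are shared with another gene of GENCODE 29 for 5 of the 39 genes. RAD54L shares 25.1% with LRRC41, XRCC3 76.7% with KLC1 and FANCA 23.6% with ZNF276, all on the opposite strand. RAD54B shares 59.1% with FSBP on the same strand, and RAD50 shares 79.7% with AC116366.3 on the same strand and TH2LCRR on the opposite one. Pseudogene copies are annotated for FANCD2, BRCA1, RAD51AP1, MRE11, RBBP8 and CHEK2.

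The drugs were then compared with parental cells one by one, in a single fit with 4 groups and with CR and DR, which have 1 library each, assumed to vary like the parental and PR libraries. The 3 comparisons share the parental libraries. The median log2 fold change of the 39 genes was -1.53 in CR, -1.58 in DR and -1.77 in PR. None of the 39 was called higher with any drug, whereas 869 of all 21362 genes tested were in CR, 1251 in DR and 3875 in PR. In edgeR, 11 of the 39 genes were lower in CR, against 2.17% of the 21362 genes tested, 20 in DR, against 2.39%, and 28 in PR, against 9.62%. The 11 genes of CR were FANCA, FANCB, FANCG, UBE2T, FANCD2, FANCI, BARD1, BRIP1, BRCA2, RAD54L and EME1, and all 11 were also called in DR and PR. FANCD2, for instance, had log2 fold changes of -2.70 in CR, -2.78 in DR and -2.81 in PR.

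The counts for single drugs rest on few libraries. For the alternatives that follow, the calls over all genes are not given here. A change in the counts may thus not be particular to the 39 genes. Without parental replicate 2, no gene was called in CR and 1 in DR, and with the form of the library name as a term, none was called in either. Without PR replicate 2, PR had 14 calls. DESeq2 called 24 genes each in CR and DR. The names have 2 forms, and the form separated PR replicate 1 with parental replicates 1 and 3 from the other 4 libraries. Within the forms, the median log2 difference of the 39 genes was -1.29 with 1 surviving against 2 parental libraries and -1.78 with 3 against 1.

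The next comparison asked whether paclitaxel, a microtubule drug, left the repair genes at another level than the drugs that damage DNA. None of the 39 genes differed between PR and the mean of CR and DR in edgeR, where 0.0% of 21362 genes were called in either direction. At an unadjusted p under 0.05 there were 0 of the 39 genes and 2678 of all genes. DESeq2 called 282 genes in all and limma on log2(FPKM + 1) 81, with none of the 39 among them. The median difference (PR minus the mean of CR and DR) was -0.12 on the log2 scale, and single genes ran from -0.55 for CHEK1 to 1.08 for BRCA2. The 95% interval lay within 2-fold either way for 16 of the 39 genes, so larger differences are not excluded for the other 23. BRCA2 came nearest to a difference, with an interval from -0.08 to 2.24 (adjusted p = 0.434 in edgeR).

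**Figure D4:**
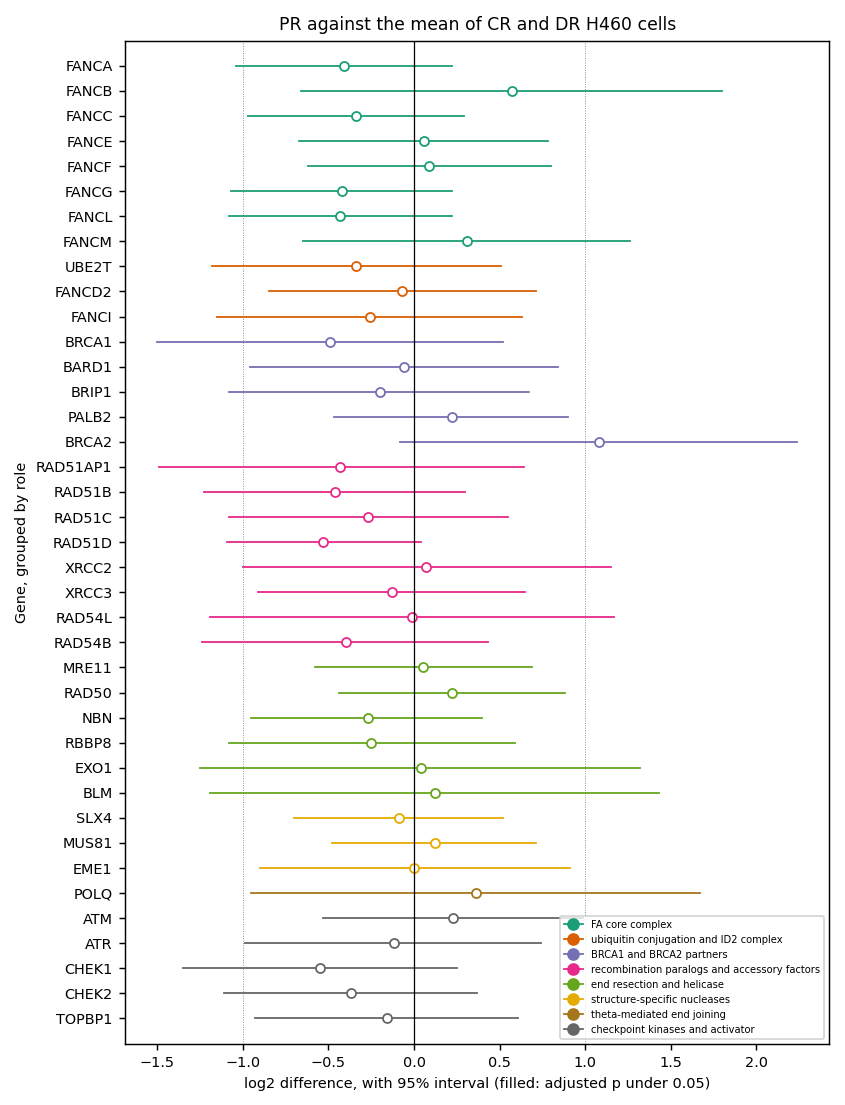
Log2 difference of the 39 genes between PR cells (2 libraries) and the mean of CR and DR cells (1 library each), with 95% intervals, coloured by role. All points are open, since no gene had an adjusted p under 0.05, and 38 of the 39 lie within 2-fold of 0.

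Differences between single surviving libraries were not tested. CR and DR were within 2-fold of each other for all 39 genes. Their median difference regardless of sign was 0.22 on the log2 scale, against 0.23 over 22464 genes. Such closeness was thus not particular to the 39 genes. PR replicate 2 was below PR replicate 1 for 33 of the 39 genes, and 19 genes were more than 2-fold apart. The median difference (PR replicate 2 minus PR replicate 1) was -0.92 on the log2 scale, against 0.0 over all 22464 genes. Regardless of sign, the medians were 0.92 and 0.29. PR replicate 1 had the highest FPKM of the 4 surviving libraries for 27 of the 39 genes, as it had for 29.1% of all genes tested, and PR replicate 2 the lowest for 23, as for 15.6% of all genes. BLM, at 0.805 against 0.129, and EXO1, at 12.6 against 2.90, show the gap. MKI67 moved in the same way, with an FPKM of 6.15 in PR replicate 1 and 0.655 in PR replicate 2, beside 1.01 in CR and 1.22 in DR. Its part in the gap was not tested.

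TS cells were compared with 2D cells of both lines in a fit that also had a term for the cell line. None of the 39 genes was called in edgeR, against 0.191% of the 18372 genes tested. At an unadjusted p under 0.05 there were 0 of the 39 genes and 1363 of all genes. XRCC3 had the smallest unadjusted p of the 39 (log2 fold change -0.59, interval -1.24 to 0.07), and DESeq2 and limma called none. The median of the 39 genes was -0.24, against -0.01 for all genes. In H460, the TS library lay within the parental range for 28 of the 39 genes, and it did so for 56.7% of all genes tested in the drug comparison. It lay above all 4 surviving libraries for 31 of the 39 genes, against 29.4% of all. The gene farthest from the parental mean was RAD51B, at 1.52 in H460 TS cells against 3.30, 4.64 and 3.00 in parental cells, a log2 difference in CPM of -1.19.

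In A549, FPKM was lower in the TS than in the 2D library for 38 of the 39 genes, as for 51.1% of all genes, and the median log2 difference was -0.50. FANCF was the exception, at 3.02 in TS cells and 2.90 in 2D cells. BLM differed most, at 2.61 against 5.75. The summed FPKM of the proliferation markers was 1197 in the 2D library and 669.0 in the TS library, and its part in the difference was not tested. With 1 library each, the A549 libraries have no test of their own. The difference between the lines in the change with TS culture was tested as an interaction, in which the lone libraries were assumed to vary like the parental ones. No gene of the 39 was called in edgeR, against 0.436% of 19941 genes, and BRCA2 alone had an unadjusted p under 0.05. Its difference (change in A549 minus change in H460) was -1.35 on the log2 scale, with an adjusted p = 0.546 in edgeR.

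**Figure D5:**
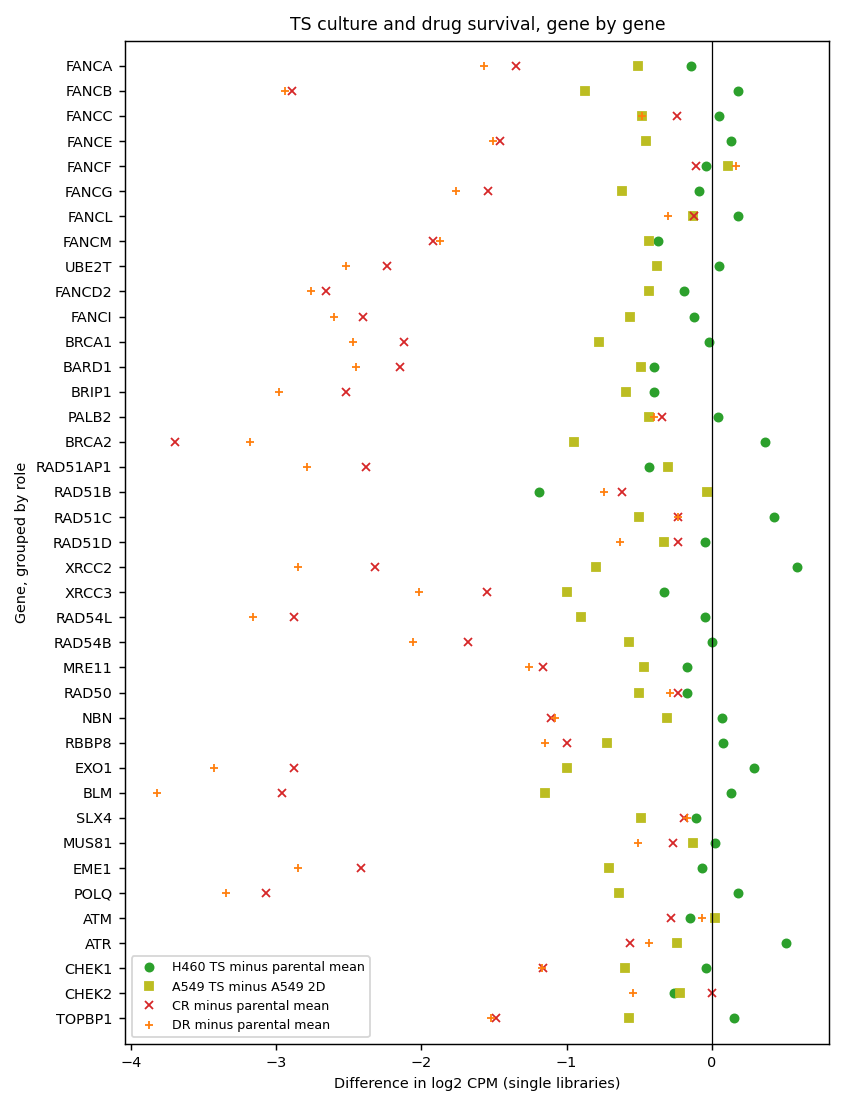
Difference in log2 CPM of the 39 genes for H460 TS cells minus the parental mean, A549 TS minus A549 2D cells, and CR and DR cells minus the parental mean, each from single libraries without a test. H460 TS points scatter around 0, A549 TS points lie slightly below 0 (median -0.50), and CR and DR points lie to the left of both for most of the 28 lower genes, though RAD51D, at -0.23 in CR, lies near 0.

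Between the lines, taken over both cultures, 3 of the 39 genes (7.69%) were lower in A549 in edgeR, against 9.42% of the 18372 genes tested. None of the 39 was higher, whereas 2653 of all genes were. Lower calls were thus no more frequent among the 39 genes than among all genes. EXO1 was at an FPKM of 12.6 and 6.13 in A549 2D and TS cells and between 40.04 and 87.03 in parental and TS H460 cells, a log2 fold change of -2.77 (SE 0.44, adjusted p = 0.00585 in edgeR). FANCE (-1.02) and BARD1 (-0.79) were both at an adjusted p of 0.0486 in edgeR. The call of FANCE was lost without any 1 of the 6 libraries and that of BARD1 without any 1 but parental replicate 3, while EXO1 was called in each of these fits.

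Other genes of the same pathways, from lists chosen by function, also had more lower than higher members in the drug-surviving cells, in the fit in which 15.3% of all genes were lower. Of 36 other genes of crosslink repair and recombination, 16 were lower and 1 was higher, with a median log2 fold change of -0.53. DNA2, a resection nuclease, fell 4.25-fold, and MCM8, a helicase of recombination, fell 3.82-fold. RPA3, a subunit of the protein that coats single-stranded DNA, fell 3.29-fold, and RMI1, a partner of BLM, fell 3.70-fold. EME2, the paralog of EME1, was the only gene of this list called higher, at 1.78, 1.42 and 2.05 in parental cells and at 3.11 in CR, 3.36 in DR, and 5.16 and 4.08 in PR (log2 fold change 1.06, adjusted p = 0.0134 in edgeR), and 30.0% of its exon bases are shared with SPSB3 on the opposite strand.

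Of 15 other checkpoint genes, 9 were lower and none higher. TIMELESS and TIPIN, which protect forks together, fell 3.33-fold and 2.98-fold, CLSPN, the adaptor that activates CHEK1, fell 7.24-fold, and H2AX, the histone phosphorylated at breaks, fell 4.31-fold. Of 10 genes of non-homologous end joining, 4 were lower and none higher. XRCC5 and XRCC6, the subunits of Ku, fell 1.82-fold and 2.14-fold, PRKDC, the DNA-dependent kinase, fell 2.60-fold, and XRCC4, which holds the ligase, fell 1.94-fold. Of 13 E2F, RB and MuvB regulators, 11 were lower and none higher, among them LIN9 (4.49-fold), E2F8 (8.67-fold), MYBL2 (10.4-fold) and RBL1 (3.31-fold). In TS cells none of the genes of these 4 lists was called.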

How the data were processed

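Poly(A) RNA of 10 samples of H460 and A549 cells was prepared with the TruSeq kit and sequenced on HiSeq systems. The submitters' processing notes name bcl2fastq 1.8.4, Trimmomatic, HISAT2 2.1.0, StringTie 2.1.3b and GRCh38, and strand handling is not given in the sources used here. The deposited read counts per gene are whole numbers, not normalized, and how reads were turned into them is not given in the sources used here. The FPKM values were deposited by the authors, normalized for transcript length and library size, and the TPM values, also deposited by the authors and scaled to a common total, were not used. Counting error of the lowest values and the number of libraries limit the precision.

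The 39 genes and the other gene lists were chosen with earlier results of these data known. Counts were fitted with edgeR 4.0.16 (TMM scaling, filterByExpr, glmQLFit and glmQLFTest) in R 4.3.3, two-sided, with Benjamini-Hochberg adjustment over all genes tested and a threshold of 0.05. The fits took 4 surviving against 3 parental libraries, the same 7 libraries in 4 groups, and 6 undrugged libraries with cell line and culture as terms, or with their interaction. Untested log2 differences used TMM-scaled log2 CPM. Alternatives were DESeq2 1.42.0, upper-quartile scaling, no filter on low counts, limma 3.58.1 on log2(FPKM + 1) and log2(FPKM + 0.1) keeping genes at an FPKM of 1 or more in 2 or more libraries, leaving out each library, the form of the library name as a term, and a replicate block. Fits were also run on simulated counts drawn with the same dispersion for every gene. That setting cannot check the spread assumed for groups with a single library. All 39 genes could be named, and values in every H460 2D library are given for those called with a log2 fold change of at least 1 in size, and for others as examples. Of other lists that are no cell type markers, the 4 genes with the smallest p are named, with MKI67, PCNA, CDKN1A and MDM2. Markers of other cell types were checked from lists of epithelial, leukocyte, endothelial and fibroblast genes. Exon overlap came from GENCODE 29 on GRCh38. Python 3.11.15, pandas 2.3.3 and matplotlib 3.10.9 were used for tables and figures.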

Additional observations from a re-analysis of the deposited data

Results flagged for a closer look

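Among the 4 drug-surviving libraries, 1 library stood apart from the other 3 by Dixon's ratio on log2(FPKM + 1) for 6 of the 39 genes. The nominal rate of this rule, about 1 in 20, assumes libraries of the same kind and genes that vary independently. These libraries came from 3 drugs, and the share of all genes flagged is not given here, so the count does not show an excess. PR replicate 1 was the high library for FANCB (FPKM 0.795), FANCM (1.36), BRCA2 (0.4053) and RAD50 (12.54), and the low one for RAD51B (1.541). CR was the high library for FANCC (4.148). The 4 high values of PR replicate 1 go with its place above the other surviving libraries in 27 of the 39 genes. Its MKI67 was at an FPKM of 6.15, against 0.655 to 1.22 in the other 3 surviving libraries, and the part of this in the gap was not tested.

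In TS culture, 4 genes lay above all parental libraries in H460 and below the 2D library in A549. They were BRCA2 (1.538 in H460 TS), RAD51C (22.8), XRCC2 (8.932) and ATR (7.465). These were all of the 39 genes above the parental range in H460 TS cells. Since 38 of the 39 genes were lower in A549 TS than in A549 2D cells, opposite directions were nearly bound to follow. The share of all genes with this pattern is not given here. RAD51C exceeded the highest parental library, at 22.5, by little. The opposite directions were not tested on the single libraries, and the interaction term in edgeR called none of the 4 genes.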

How the results depend on the processing

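The 28 calls in drug-surviving cells changed little, to between 26 and 30 over 13 alternatives. Calls over all genes in the alternatives are not given here, so changes in the counts may not be particular to the 39 genes. Of the 28 genes, 26 were called in all of them, the others being RAD51B and RAD51D, and 3 genes outside the 28 were called in at least 1 (FANCC, RAD51C and CHEK2). The size of the fall moved by over 1.5 times for 14 of the 28 genes with limma on log2(FPKM + 1), which shrinks changes at a low FPKM, and for 1, BRCA2, without PR replicate 1. Under the other alternatives it did so for none. Upper-quartile scaling moved the median of all genes from 0.06 to 0.23 and that of the 39 genes from -1.66 to -1.50. In CR, 11 calls became 24 with DESeq2, 17 with upper-quartile scaling, 6 with no filter on low counts, and 22 and 20 with limma at pseudocounts of 1 and 0.1. With the form of the library name as a term, CR and DR had 0 calls each. Leaving out 1 library gave 0 to 15 calls in CR, 1 to 20 in DR, 14 to 31 in PR and 1 to 3 between A549 and H460. The last comparison had 8 calls with DESeq2 and 1 with no filter on low counts, against 3. These causes were not tested, beyond the fewer libraries left. PR against CR and DR, TS against 2D, and the interaction had 0 calls among the 39 genes under all alternatives run, and those that left out the only library of a needed group could not be fitted.

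PR and parental cells share the replicate numbers 1 and 2. With the replicate block, 33 genes were called in these 4 libraries, and 31 without it, against 28 in all 7 libraries. The calls over all genes in the fits of 4 libraries are not given here. The deviations of same-numbered libraries had a Pearson's r of 0.0858 over 18398 genes, which are not independent replicates, so the numbers were not taken as pairs. With 2 libraries at most per drug, small differences between drugs could not be resolved.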
